A study of Mus musculus with 9 samples.

Results

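The hearts described here came from male NSG mice operated on at 8 weeks of age and killed about 3 weeks after surgery, and the comparison set 3 hearts labelled as hosts of a splenic HCT116 tumour (T, animals 11, 12 and 15) against 3 hearts labelled Sham (S, animals 2, 3 and 5). These are 6 of the 9 heart libraries in the series. The other 3, labelled splenic HCT116 plus ACVR2B/Fc (A + T, animals 20, 21 and 22), entered the fit for the spread between animals and are given only beside the T values. NSG (NOD scid gamma) mice lack mature T, B and NK lymphocytes, and all 3 groups share this background. HCT116 is a human colorectal cancer cell line that was placed in the spleen, from which it seeds the liver. ACVR2B/Fc is a soluble form of the activin type 2B receptor that captures activins, myostatin and related ligands. The comparison asks how the heart transcriptome of the labelled tumour hosts differed from that of the sham-operated mice, by cell type, contractile apparatus, metabolism and inflammation.

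One doubt about the labels has to come before the results. The gene-by-gene differences between T and S computed from these counts matched those that the study's supplementary list gives under the heading of ACVR2B against sham, and not those under its heading of tumour against sham. Either the labels of the libraries or the headings of that list may have been exchanged, and which treatment the T animals received was not settled here. An exchange of library labels could involve the A + T libraries, so the A + T label carries the same doubt. The differences of A + T from S were not compared with that list. T is used below as the label of 3 libraries, and every direction is that of the libraries labelled T relative to those labelled S.

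Each library was made from the RNA of 1 heart and held between 12392222 and 19732471 counts. The labels name no batch of extraction or sequencing. Of 13890 genes in the table, 13364 were tested with edgeR's quasi-likelihood test and called at a Benjamini-Hochberg adjusted P under 0.05. Levels are CPM, the counts of a gene relative to the total of its library after scaling by the trimmed mean of M values, and changes are log2 fold changes of T over S with their standard error (SE). The ribosomal RNA precursor Rn45s took between 4.57% and 19.6% of the counts, unevenly within S and within T. Whole hearts hold several cell types, so that a lower level of a cell type's genes can come from fewer such cells or from less RNA per cell, which cannot be told apart here. The defining markers of ventricular muscle were abundant in all 9 libraries. The lung and airway genes were at 1.38, 4.16 and 1.74 CPM in sum in the S hearts and at 2.23, 195 and 2.90 CPM in the T hearts, so that animal 12 of T carried RNA of the airways. A + T animal 22 carried more, at 1609 CPM, and without it 3786 genes were called in T vs. S in place of 2838. T animal 12 held the highest atrial sum (5059 CPM, against 1741 and 966 CPM in the other T hearts and 3406 to 3453 CPM in S). T animal 12 also held the highest Adipoq, a fat cell hormone, at 15.6 CPM. The part of these transcripts in the results was not tested.

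Of the genes tested, 2838 (21.2%) were called, 1371 higher in T (10.3%) and 1467 lower (11%), and the median log2 fold change over all genes was near 0 (-0.004). Among the called genes, 200 rose at least 2-fold and 428 fell at least 2-fold. At an unadjusted P under 0.05 and a fold change of 1.5 or more, 1899 genes passed (14.2%), 695 higher and 1204 lower. The 3 T hearts all lay above the 3 S hearts for 2826 genes (21.1%) and all below for 2873 (21.5%). Leaving out 1 animal moved the count of called genes by more than 1.5-fold in 4 of the 6 cases, to 1797, 1874 and 1859 without S animals 2, 3 and 5 and to 1765 without T animal 11, with 2219 and 2337 without T animals 12 and 15.

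The adult mouse heart contracts with alpha-myosin heavy chain, encoded by Myh6, and burns mainly fatty acids. Under load, illness or hormonal change it can bring back beta-myosin heavy chain, encoded by Myh7, and shift its fuel use, its protein turnover and the matrix laid down by its fibroblasts. Systemic illness reaches the heart through cytokines that act on Stat3, through interferons, through glucocorticoids and through feeding, each with its own set of target genes. The lists of genes below follow these roles, and each list's count stands beside the 10.3% of all genes called higher and the 11% called lower. The plot of calls per list gives 30 of them.

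**Figure D1:**
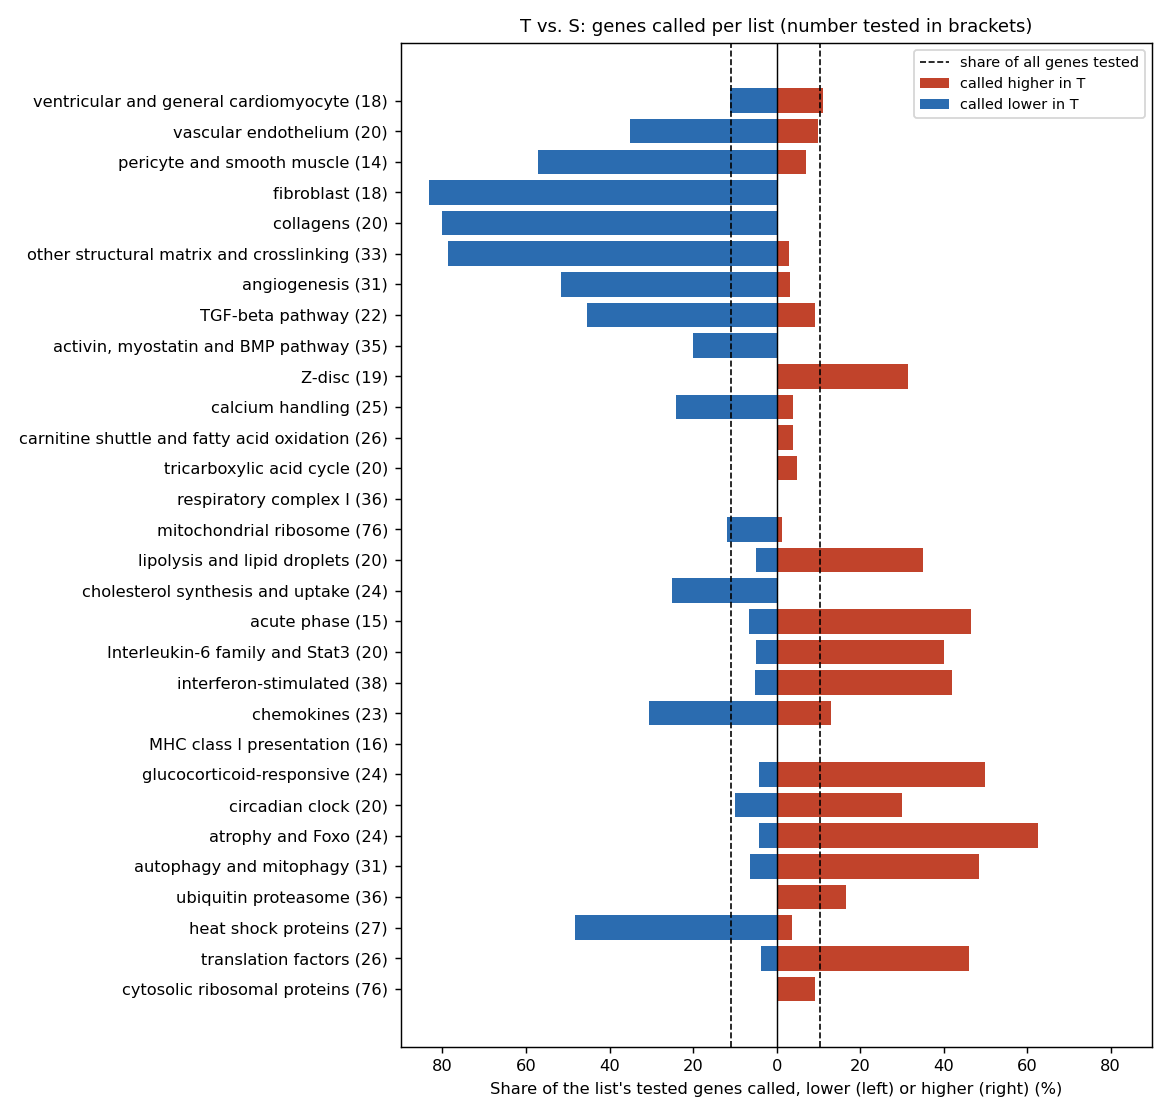
Share of the tested genes of 30 lists called lower (blue, left) or higher (red, right) in T than in S, in percent, with the number tested in brackets and dashed lines at the shares of all genes tested (11% lower, 10.3% higher). Fibroblast, collagen and other matrix genes reach furthest to the left, and the glucocorticoid-responsive, atrophy and autophagy lists furthest to the right.

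The change with the smallest P of any gene was in the contractile apparatus. Myh7 (chr14:54970684-54994626 in GENCODE M21 on GRCm38, minus strand) was at 1536, 1255 and 1292 CPM in the S hearts and at 11605, 12803 and 11981 CPM in the T hearts. The ranges were far apart and the spread within each group was small. Myh7 rose 8.91-fold, by 3.16 on the log2 scale (SE 0.12, adjusted P = 7.49e-07), with 3.10 to 3.26 when each animal was left out. Its neighbour Myh6 (chr14:54941921-54966927) was at 27284, 21367 and 22259 CPM in S and at 19383, 14356 and 13773 CPM in T, a difference of -0.58 (SE 0.22) that did not pass the test (adjusted P = 0.0832), although all T values lay below all S values. Per length, Myh7 made up 5.48% ± 0.113 (SD, n = 3) of the sum of both myosins in S and 43.8% ± 5.43 in T, from the authors' length-normalized log2 values. In A + T the share was 11.7% ± 3.40 and Myh7 was at 2584, 2252 and 2397 CPM, above every S heart and below every T heart. The pair share long stretches of near-identical sequence, so that a small part of the reads may have been assigned to the wrong gene. The other 9 of 10 thick filament genes tested were not called.

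Thin filament genes moved in both directions, with 3 of 15 called higher and 4 lower, and with 1 called higher and 2 lower without S animal 2, S animal 5 or T animal 11. Actc1, the cardiac alpha-actin, was at 11243, 11490 and 11203 CPM in S and at 6331, 5879 and 5999 CPM in T, lower with no overlap. Actc1 fell by 0.90 (SE 0.21, adjusted P = 0.0128). The leiomodin Lmod2, which sets thin filament length, rose from between 777 and 902 CPM to between 1198 and 1514 CPM (log2 fold change 0.67, SE 0.12). Tnnt2, cardiac troponin T, was called at 0.34, a call that only the fit without T animal 12 kept. Acta2, an actin of smooth muscle and activated fibroblasts, fell by 1.23 (SE 0.19).

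The structures that anchor the sarcomere were called higher more often than lower. Of 19 Z-disc genes 6 rose and none fell (0 at an unadjusted P under 0.05 as well, and 0 with DESeq2, the likelihood ratio test and limma-voom), with Tcap at 1.28 (SE 0.17), Myot at 0.88 (SE 0.14) and Synpo at 0.77. Tcap, the titin cap protein, was at 367, 391 and 356 CPM in S and at 825, 1159 and 729 CPM in T, with no overlap. Of 12 titin, M-band and strain-sensing genes 3 rose, among them the strain-responsive Ankrd1, which went from 2603, 2892 and 2590 CPM to 5396, 6309 and 5220 CPM (1.07, SE 0.15, adjusted P = 0.000989). Of 14 desmosome and intercalated disc genes 5 rose, with Cdh2 (N-cadherin) at 0.62, Nrap at 0.60 and Pkp2 (plakophilin 2) at 0.59, and 1 fell. Of 15 dystrophin complex and costamere genes 4 rose, led by the sarcoglycan Sgcd at 0.55 (SE 0.11).

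Genes that set the beat moved in both directions. Of 25 calcium handling genes 1 was called higher and 6 lower. The falls were led by Casq1, the calsequestrin isoform typical of skeletal muscle, at -1.31 (SE 0.21). The plasma membrane calcium pump Atp2b4 followed at -1.11 (SE 0.16). Atp2a2, the sarcoplasmic reticulum calcium pump, was at 13363, 13259 and 14215 CPM in S and at 13471, 13053 and 13353 CPM in T, and the groups overlapped (-0.03, SE 0.13, adjusted P = 0.882). Its inhibitor Pln was called at 0.38, a call lost whichever of the 6 animals was left out. Of 20 potassium channel genes 1 was called higher and 4 lower, with Kcnd3, a pore subunit of the transient outward current, at -0.53 (SE 0.12). Of 10 sodium and pacemaker channel genes 2 were called higher and 1 lower. The pacemaker channel Hcn2 fell by 0.91 (SE 0.14), from between 27.4 and 29.7 CPM to between 14.6 and 15.5 CPM. In adrenergic and cyclic AMP signalling 2 of 23 genes were called higher and 2 lower (0 lower without S animal 3, S animal 5 or T animal 11), and the regulatory subunit Prkar1a rose by 0.85 (SE 0.10).

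Wall-stress genes did not move as a group. Of 15 fetal and wall-stress genes 3 rose, Myh7, Ankrd1 and Ctgf, and 2 were called lower (0 without S animal 2, S animal 3, S animal 5 or T animal 11). Ctgf, a connective tissue growth factor that is also known as a Tgf-beta target, was at 171, 139 and 180 CPM in S and at 426, 545 and 398 CPM in T (1.48, SE 0.16, adjusted P = 0.000243). The natriuretic peptide genes were not called. Nppa, made mainly by atrial muscle, was at 2013, 1969 and 1865 CPM in S and at 1217, 3358 and 795 CPM in T (-0.12, SE 0.43, adjusted P = 0.867). Nppa makes up most of the atrial sum given above, so that their shared order of animals is no separate observation. Nppb was at 304, 305 and 196 CPM in S and at 152, 244 and 173 CPM in T, and the groups overlapped (-0.50, adjusted P = 0.123). Bmp10, a ligand made by atrial muscle, was at 66.1, 158 and 91.9 CPM in S and at 1.86, 1.13 and 1.78 CPM in T (-6.07, SE 1.43, adjusted P = 0.0135), a call lost without T animal 11 or T animal 12. Of the other 11 atrial genes none was called (2 had an unadjusted P under 0.05, and DESeq2, the likelihood ratio test and limma-voom called 1, 2 and 1 of the 12 with Bmp10). Without T animal 12, however, 3 of the 12 were called lower and the median of the list went from -0.69 to -1.78. In T animal 12, whose atrial sum was the highest and mostly Nppa, Bmp10 was at 1.13 CPM. The part of the atrial tissue sampled in the Bmp10 values was not tested.

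Among cell types with at least 10 genes tested, the fibroblast list had the highest share of calls. Of 18 fibroblast genes 15 fell and none rose (0 at an unadjusted P under 0.05, and 0 with each of the other tests), with a median of -0.90. Gsn, a gelsolin that severs actin and marks resting fibroblasts, was at 2114, 1879 and 1834 CPM in S and at 988, 941 and 914 CPM in T. Gsn (chr2:35256380-35307892) fell 2.05-fold (-1.04, SE 0.09, adjusted P = 0.000115). The fibroblast transcription factor Tcf21 fell by 1.31 (SE 0.16) and the small proteoglycan Lum fell by 1.44 (SE 0.19). Dpt fell by 1.17 (SE 0.16) and the growth factor receptor Pdgfra fell by 0.87. Of 11 genes of activated fibroblasts 5 were called lower, with the transcription factor Meox1 at -2.41 (SE 0.26) and the matrix glycoprotein Comp at -2.16 (SE 0.20), and 2 rose, Lox at 1.19 (SE 0.22) and Thbs4 at 0.65. The summed fibroblast level was 4694, 4328 and 4182 CPM in S, 2280, 2356 and 2253 CPM in T and 4037, 3053 and 3113 CPM in A + T.

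Genes of the matrix that these cells lay down were called lower as well. The lists are not separate, since the fibroblast list shares genes such as Col3a1 and Dcn with the matrix lists. Of 20 collagen genes tested 16 fell and none rose (0 at an unadjusted P under 0.05, and 0 with each of the other tests), with a median of -1.31. Col3a1, the fibrillar collagen III, was at 332, 337 and 365 CPM in S and at 80.9, 93.4 and 88.4 CPM in T. Col3a1 (chr1:45311538-45349706) fell 3.93-fold (-1.98, SE 0.27, adjusted P = 0.000989). Col15a1, of the basement membrane zone, went from 165, 128 and 139 CPM to 25.7, 18.1 and 37.7 CPM (-2.42, SE 0.32) and had the lowest value in the list. The collagen VI chain Col6a3 fell by 2.11 (SE 0.30). Col1a1 was called at -1.65 (SE 0.38, adjusted P = 0.0116), a call lost without T animal 11. Serpinh1, the collagen chaperone of the endoplasmic reticulum, was among the 10 genes with the smallest P and went from 214, 202 and 228 CPM to 69.0, 64.3 and 66.7 CPM (-1.69, SE 0.10, adjusted P = 1.96e-05). Both groups were narrow and far apart.

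Of 33 other structural and crosslinking matrix genes 26 fell and 1 rose, with a median of -0.78. The falls were led by the microfibril protein Mfap4 (-2.22), Serpinh1, the periostin gene Postn (-1.63) and the crosslinking enzyme Loxl2 (-1.59, SE 0.23), and Fbn1, Nid1 and Lum also fell. Lox, which crosslinks collagen and elastin, rose from between 7.45 and 8.24 CPM to between 13.3 and 22 CPM, against the direction of the list. Of 21 matrix proteases and inhibitors 5 were called lower, with the gelatinase Mmp2 at -1.19 (SE 0.23), and 1 was called higher. Without S animal 2 or T animal 11 only 2 genes of the list were called lower.

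**Figure D2:**
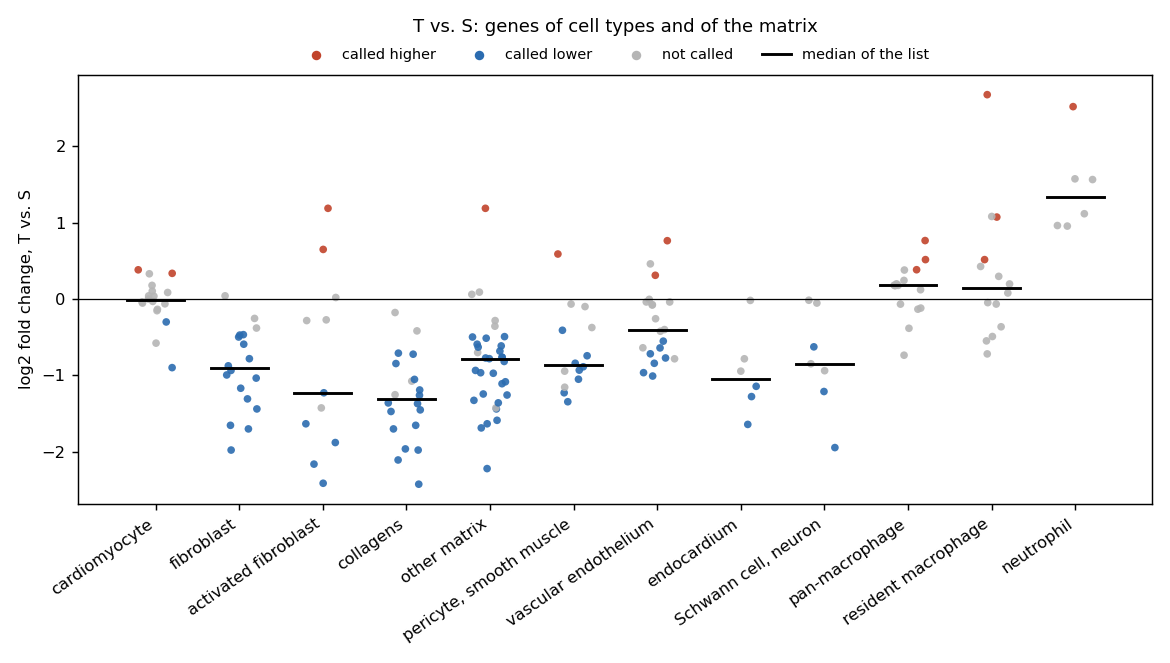
Log2 fold change of T over S for each tested gene (point) of 12 lists of cell types and matrix, with the list's median as a bar, called genes in red (higher) or blue (lower) and the rest in grey. The fibroblast, collagen and other matrix points lie almost all below 0, with medians of -0.90, -1.31 and -0.78, while the cardiomyocyte median is -0.02.

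Genes of the TGF-beta and activin pathways are ligands, receptors, binding proteins and targets that govern this matrix. Of 22 TGF-beta pathway genes 10 were called lower and 2 higher, and without S animal 5 or T animal 12 only 5 were called lower. The latent binding protein Ltbp4 fell from 410, 286 and 364 CPM to 124, 119 and 139 CPM (-1.47, SE 0.16), the ligand Tgfb3 fell by 0.92 and the feedback inhibitor Pmepa1 fell by 0.80. The target Ctgf rose, against the direction of the list. Of 35 genes of the activin, myostatin and BMP pathway 7 were called lower and none higher (1 at an unadjusted P under 0.05, and 0 with DESeq2, the likelihood ratio test and limma-voom), and without T animal 11 only 4 were called lower. The receptor Acvr1 fell by 0.77 (SE 0.11) and the follistatin-like Fstl1 fell by 1.09 (SE 0.18). The BMP target Id2 was at -0.62 and the decoy receptor Bambi at -0.73, both called.

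Endothelial and mural genes fell in part. Of 20 vascular endothelial genes 7 were called lower and 2 higher, with a median of -0.41. Cdh5, the cadherin of endothelial junctions, was at 234, 236 and 202 CPM in S and at 108, 120 and 116 CPM in T (-0.96, SE 0.10, adjusted P = 0.000258). Kdr, the main Vegf receptor, was at 244, 245 and 198 CPM in S and at 97.7, 89.3 and 156 CPM in T, lower without overlap (-1.01, SE 0.22, adjusted P = 0.00854). The angiopoietin receptor Tek fell by 0.84 and Vwf fell by 0.64. The fatty acid carrier Cd36 was called at 0.31 and the transcription factor Sox17 at 0.76, calls that each held in only 1 and 2 of the 6 fits without 1 animal. The summed level of the 20 genes was 3904 to 4297 CPM in S and 3809 to 4036 CPM in T, so that the sum overlapped between groups. Of 14 pericyte and smooth muscle genes 8 were called lower, with the pericyte matrix protein Vtn at -1.34 (SE 0.21), Rgs5 at -1.05 and Kcnj8 at -0.93, and the shared muscle gene Des rose by 0.59. Of 6 endocardial genes 3 were called lower, Tmem108, Npr3 and Cgnl1, and the call of Npr3 held in 2 of the 6 fits. Of 7 Schwann cell and neuronal genes 3 were called lower, with the noradrenaline-synthesizing enzyme Dbh at -1.94 (SE 0.20) and the glial transcription factor Sox10 at -1.21 (SE 0.25).

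Angiogenic genes were called lower more often than higher. Of 31 such genes 16 were called lower and 1 higher, with a median of -0.55. Apln, a peptide that endothelial tip cells secrete, was at 5.58, 8.78 and 8.46 CPM in S and at 1.05, 0.951 and 0.842 CPM in T. Apln fell 7.88-fold (-2.98, SE 0.26, adjusted P = 0.000115). Its receptor Aplnr went from 41.3, 48.4 and 31.2 CPM to 8.67, 4.76 and 7.58 CPM, a 5.80-fold fall (-2.54, SE 0.22, adjusted P = 0.000115). Ligand and receptor thus fell in the same hearts, with no overlap in either. The chemokine receptor Cxcr4 fell by 1.77 and Angpt2 fell by 1.52 (SE 0.25). Vegfc fell by 1.05 and Nrp1 fell by 0.89. Vegfa was called at -0.49, a call that only the fit without T animal 15 kept. In the related vasoactive systems, Agt, the angiotensin precursor, rose from 4.81, 6.55 and 8.75 CPM to 21.4, 22.8 and 24 CPM (1.77, SE 0.18), the endothelin receptor Ednra rose by 0.87 and Corin, which cleaves pro-natriuretic peptides, by 0.80.

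Immune cells gave few calls. Of 15 pan-macrophage genes 3 were called higher, Fcgr1 at 0.76, Cd163 at 0.51 and C1qb at 0.38, and none lower (1 at an unadjusted P under 0.05, and 0 with the other tests). The call of C1qb was lost whichever animal was left out, and those of Fcgr1 and Cd163 were kept in 1 of the 6 fits without 1 animal. The summed level of the 15 genes was 396, 413 and 443 CPM in S and 394, 519 and 411 CPM in T, so that the groups overlapped, while A + T had 894, 718 and 990 CPM. Of 14 tissue-resident macrophage genes 3 were called higher (1 without S animal 5), led by the chemokine Ccl8, which went from 0.276, 0.508 and 0.651 CPM to 2.79, 3.98 and 2.25 CPM (2.67, SE 0.44) and was at 0.186, 0 and 0.0616 CPM in A + T. Of 6 neutrophil genes Lcn2 alone was called, and all 6 had a log2 fold change above 0, with a median of 1.34. Their summed level, with Lcn2 as its largest part in T, was 9.12, 10.6 and 39.0 CPM in S and 62.1, 70.3 and 71.0 CPM in T. Of the defining markers, the granule protein gene S100a8 overlapped between groups (3.35, 4.64 and 4.21 CPM in T, up to 5.28 CPM in S) and S100a9 was at 1.16, 1.57 and 8.03 CPM in S and at 8.86, 11.2 and 9.92 CPM in T (1.57, SE 1.12, adjusted P = 0.347). Of the T and NK lymphocyte list 1 of 15 genes was in the table, and of the B and plasma cell list 1 of 9, which are the cells that NSG mice lack. Spp1, a macrophage matrix protein, was called at 3.13, but the call was lost without any 1 of the S animals and without T animal 12, where it reached 8.98 CPM.

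Fuel genes showed a narrow set of large changes around a broad set that was not called. Pdk4, the kinase that inhibits the pyruvate dehydrogenase complex, was at 126, 259 and 597 CPM in S and at 3867, 1558 and 2436 CPM in T. Both groups were widely spread, yet the lowest T heart was above the highest S heart. Pdk4 (chr6:5483351-5496309) rose 8.01-fold (3.00, SE 0.50, adjusted P = 0.00263). The mitochondrial carrier Ucp3 followed the same order of animals, at 8.35, 12.4 and 25.5 CPM in S and 115, 48.4 and 76.8 CPM in T (2.40, SE 0.38, adjusted P = 0.00211). Angptl4, an inhibitor of lipoprotein lipase, was at 1.82, 4.67 and 10.8 CPM in S and at 58.4, 11.8 and 24.2 CPM in T, and its call (2.51, SE 0.61) was lost without S animal 2, S animal 3 or T animal 11. S animal 2 was the lowest and S animal 5 the highest of the S hearts for all 3 of these genes, and T animal 11 was the highest of the T hearts. Txnip, an inhibitor of glucose uptake, rose by 1.67 (SE 0.20) and the lipid droplet protein Plin2 by 1.12. In all, 6 of 21 Ppar targets and regulators were called higher and 2 lower, and none was called lower without S animal 2, S animal 3 or T animal 12.

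Genes of fatty acid uptake and activation moved in both directions, with 4 of 15 called higher (2 without S animal 2 or T animal 11) and 3 lower, and a median of 0.01. Lpl, the lipase that releases fatty acids from lipoproteins at the vessel wall, was at 5334, 4486 and 5525 CPM in S and at 10713, 9585 and 11618 CPM in T, higher with no overlap. Lpl (chr8:68880491-68907448) rose 2.08-fold (1.06, SE 0.14, adjusted P = 0.000835). Of 20 genes of lipolysis and lipid droplets 7 were called higher and 1 lower, with hormone-sensitive lipase Lipe at 1.41 and Plin4 at 1.10. Cpt1a, the liver-type carnitine transferase of the outer mitochondrial membrane, rose from between 48.6 and 56.8 CPM to between 94.1 and 111 CPM (1.03, SE 0.09, adjusted P = 0.000149). It was the 1 gene called among 26 of the carnitine shuttle and fatty acid oxidation, whose median was 0.01, and Acadl was at 0.13 (SE 0.12, adjusted P = 0.492). The fatty acid carrier Slc27a1 rose by 0.65 and the ligase Acsl6 fell by 1.33 (SE 0.24).

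Mitochondrial energy genes were mostly not called. Of 36 genes of respiratory complex I none was called with the quasi-likelihood test, 4 were higher and 0 lower at an unadjusted P under 0.05, and DESeq2, the likelihood ratio test and limma-voom called 1, 1 and 0. Of 15 genes of complex IV none was called, with 2 higher and 1 lower at an unadjusted P under 0.05 and with 2, 0 and 0 called by the other tests in that order. Without T animal 12, 5 genes of complex I and 5 of complex IV were called higher, and 4 of the carnitine shuttle and fatty acid oxidation. That library also carried the airway and the most atrial transcripts, whose part in these counts was not tested. In the tricarboxylic acid cycle 1 of 20 was called, Idh2 at 0.33, which only the fit without T animal 12 kept, in ATP synthase 1 of 16, the inhibitor Atpif1 at 0.79 (SE 0.15), and in complexes II and III 2 of 14 were called lower, Uqcrfs1 and Cyc1, calls lost in 6 and in 5 of the 6 fits without 1 animal. Of 76 mitochondrial ribosome genes 9 were called lower and 1 higher, a share near that of all genes, and without S animal 3 or T animal 12 only 4 were called lower. Mitochondrially encoded genes were not in the table and were not analysed here.

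**Figure D3:**
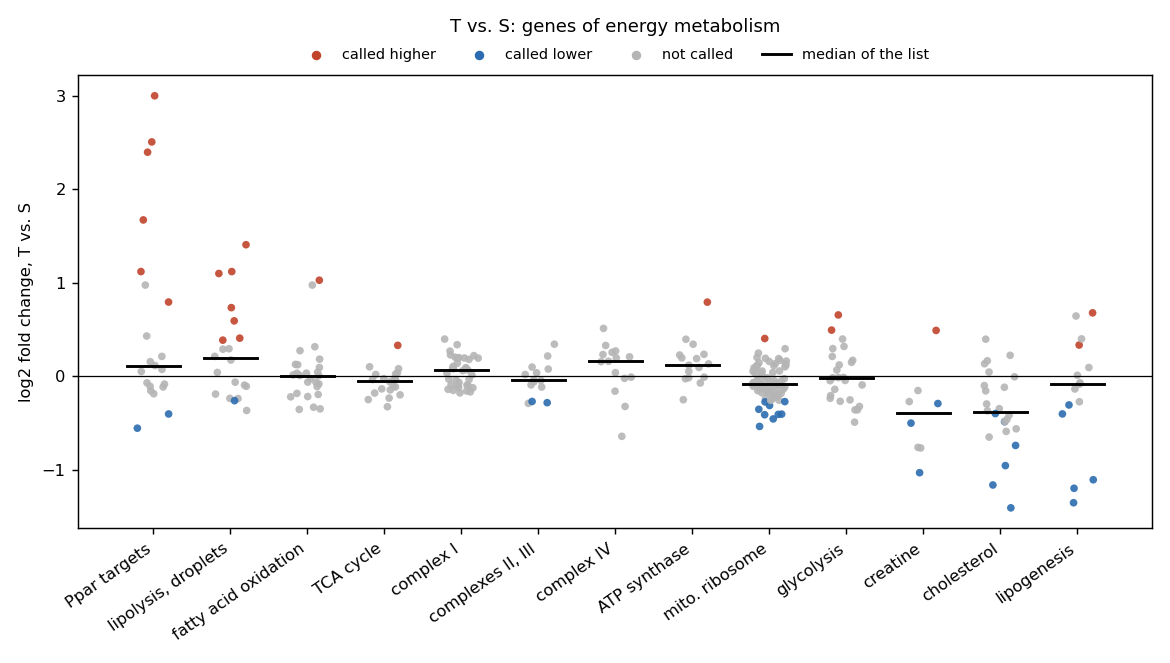
Log2 fold change of T over S for each tested gene (point) of 13 lists of energy metabolism, with the list's median as a bar, called genes in red (higher) or blue (lower) and the rest in grey. Of the lists plotted, the Ppar targets (Pdk4 at 3.00) and the lipid droplet genes (Lipe at 1.41) reach furthest above 0, while the medians of fatty acid oxidation, the tricarboxylic acid cycle and complex I are 0.01, -0.05 and 0.06.

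Carbohydrate genes gave single calls. Of 25 genes of glucose uptake and glycolysis 2 rose, the transporter Slc2a1 at 0.66 and Ldha at 0.49. Of 16 glycogen genes 3 were called higher and 3 lower (1 lower without S animal 2, S animal 5, T animal 11 or T animal 15), and Ppp1r3c, which targets a phosphatase to glycogen, fell from 297, 314 and 245 CPM to 117, 99.0 and 133 CPM (-1.30, SE 0.15, adjusted P = 0.000411). Creatine metabolism had 1 of 8 called higher, the transporter Slc6a8 at 0.49 (SE 0.09), and 3 lower, among them the cytosolic kinase Ckb at -1.03 (SE 0.14) and the mitochondrial kinase Ckmt2 at -0.50. Of 24 cholesterol genes 6 were called lower and none higher (1 at an unadjusted P under 0.05, and 0 with the other tests), with the squalene epoxidase Sqle at -1.41 (SE 0.27), and of 15 lipogenic genes 5 were called lower and 2 higher, with the desaturase Fads2 at -1.20 (SE 0.18). Without S animal 2, S animal 5 or T animal 11 only 1 lipogenic gene was called lower. Iron genes included the transferrin receptor Tfrc, which fell from 136, 186 and 192 CPM to 47.4, 62.1 and 63.8 CPM (-1.57, SE 0.33), and the haem oxygenase Hmox1, which rose by 1.11 (SE 0.22).

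Acute phase, Il-6 family and interferon-stimulated genes were called higher more often than lower. Of 15 acute phase genes tested 7 rose and 1 fell, with a median of 0.91. Serpina3n, a secreted protease inhibitor of the acute phase, was at 15.9, 16.2 and 51.4 CPM in S and at 236, 321 and 268 CPM in T. Even the highest S heart, animal 5, was far below the lowest T heart. Serpina3n (chr12:104406729-104414329) rose by 3.32 on the log2 scale (SE 0.43, adjusted P = 0.000772), and reads may be shared with its paralogs such as Serpina3m (2.28). Lcn2, a siderophore-binding protein also listed for neutrophils, went from 4.98, 3.81 and 13.5 CPM to 38.8, 39.2 and 45.6 CPM (2.52, SE 0.41), and Itih4 rose by 1.77 (SE 0.25). The part of neutrophils was not tested, and their summed level given above counts Lcn2 itself.

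Upstream of these genes lies Stat3, the transcription factor of the Il-6 family, and 8 of 20 genes of that family and its targets were called higher and 1 lower. Stat3 (chr11:100885098-100939540) was at 167, 164 and 188 CPM in S and at 372, 324 and 379 CPM in T, without overlap (1.05, SE 0.10, adjusted P = 0.000175). The oncostatin M receptor Osmr went from 27.3, 25.7 and 24.9 CPM to 65.7, 66.0 and 61.0 CPM (1.31, SE 0.10, adjusted P = 8.71e-05). The feedback inhibitor Socs3 rose by 1.65 (SE 0.28) and the kinase Pim3 by 1.47. Without S animal 2 only 5 were called higher.

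Interferon-stimulated genes were called higher in 16 of 38 and lower in 2, with a median of 0.51. Gbp6, a guanylate-binding protein outside that list and among the 10 genes with the smallest P, was at 23.1, 22.4 and 27.1 CPM in S and at 94.4, 99.7 and 104 CPM in T (2.04, SE 0.11, adjusted P = 1.38e-05). Apol9a was at 0.111, 0.254 and 0.289 CPM in S and at 1.43, 3.09 and 2.43 CPM in T (3.39, SE 0.47, adjusted P = 0.0011). Its S values were at only a few counts, and its near-copy Apol9b (2.59) may share its reads. Ifit1, which binds foreign RNA, went from 8.35, 11.5 and 9.98 CPM to 28.9, 37.5 and 38.9 CPM (1.81, SE 0.37, adjusted P = 0.00696). The transcription factors Irf9 and Irf7 rose by 1.53 and 0.99. The antiviral genes Bst2 and Cmpk2 were at -0.66 and -0.94 and both called, so that the list did not move in one direction.

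The promoters of Apol9a and Ifit1 are shown because both hold the interferon-stimulated response element, through which interferons raise transcription. Each sequence is the 250 bases before the RefSeq start of the gene on GRCm38.p6, 5′ to 3′ on the gene's strand, with the matches to GAAANN followed by GAAA on either strand in capitals. In Apol9a (chr15:77411081-77411330, minus strand, one of 2 listed starts) 2 overlapping matches lay 43 to 59 bases before the start, and in Ifit1 (chr19:34640639-34640888, plus strand) 2 matches lay 75 to 104 bases before it.
Apol9a: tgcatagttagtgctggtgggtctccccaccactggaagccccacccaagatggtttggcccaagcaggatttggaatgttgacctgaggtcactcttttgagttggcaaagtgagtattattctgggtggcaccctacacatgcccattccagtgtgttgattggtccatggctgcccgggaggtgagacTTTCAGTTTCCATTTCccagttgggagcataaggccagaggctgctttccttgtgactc
Ifit1: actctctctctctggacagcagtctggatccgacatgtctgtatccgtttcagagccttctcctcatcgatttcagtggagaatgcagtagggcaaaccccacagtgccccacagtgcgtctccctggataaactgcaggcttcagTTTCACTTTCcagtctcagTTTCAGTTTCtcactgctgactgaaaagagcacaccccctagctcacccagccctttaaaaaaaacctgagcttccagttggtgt
Of all 32851 promoter windows of this length 2.98% held the element. In the interferon-stimulated list 29 of 38 genes had a window, and the element was in 5 of 10 called higher, in 1 of 2 called lower and in 11 of 17 not called.

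Other inflammatory lists were mixed. Of 23 Nf-kB and inflammasome genes 1 rose and 3 were called lower, among them the adhesion molecule Vcam1 at -1.18 and the feedback inhibitor Tnfaip3 at -1.14. Of 23 chemokine genes 7 were called lower and 3 higher. Cxcl9, a chemokine for activated T cells, fell from 3.32, 5.53 and 3.47 CPM to 0.929, 0.594 and 1.03 CPM (-2.29, SE 0.31), and the scavenging receptor Ackr4 fell by 1.54. Of 23 complement genes 4 were called higher, led by C4b at 1.61 (SE 0.31), and 3 lower, led by the terminal component C7, which went from 43.1, 36.6 and 47.2 CPM to 11.9, 14 and 11.7 CPM (-1.75, SE 0.12, adjusted P = 2.86e-05). Without S animal 2, S animal 3 or T animal 11 only 1 complement gene was called higher. None of 16 genes of MHC class I presentation was called with the quasi-likelihood test, 2 were higher and 0 lower at an unadjusted P under 0.05, and DESeq2, the likelihood ratio test and limma-voom called 1, 1 and 0. None of 9 genes of MHC class II presentation was called by any of the 4 tests, with 0 at an unadjusted P under 0.05.

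**Figure D4:**
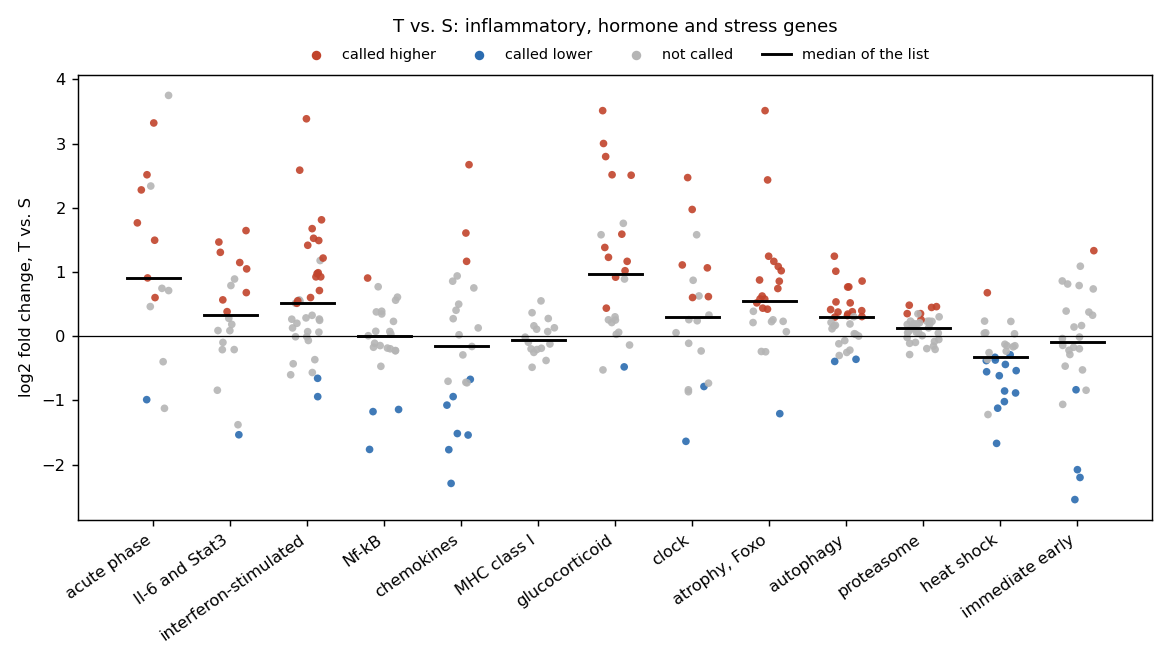
Log2 fold change of T over S for each tested gene (point) of 13 lists of inflammatory, hormone-responsive and stress genes, with the list's median as a bar, called genes in red (higher) or blue (lower) and the rest in grey. The acute phase, glucocorticoid and atrophy medians are 0.91, 0.97 and 0.55, and the heat shock median is -0.33.

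Metallothioneins bind zinc and copper and respond to metals, glucocorticoids and cytokines. Mt2 was at 10.6, 10.3 and 25.8 CPM in S and at 187, 195 and 141 CPM in T, with no overlap. Mt2 (chr8:94172664-94173568) rose 11.4-fold (3.51, SE 0.36, adjusted P = 0.000231). Its neighbour Mt1 (chr8:94179082-94180327) went from 44.6, 44.1 and 64.1 CPM to 300, 270 and 254 CPM, a 5.41-fold rise (2.43, SE 0.20, adjusted P = 8.89e-05). The pair are paralogs, and whether they share some reads was not tested. Of 12 metallothionein and zinc genes 5 were called higher and 1 lower, the others being zinc transporters such as Slc30a1 (0.64), the exporter that metals induce, and Slc39a10 (-0.86). Animal 5 was the highest of the S hearts for Mt1, Mt2, Serpina3n and Lcn2. The promoters of both metallothioneins follow, as the 250 bases before their RefSeq starts on GRCm38.p6 (Mt2 at chr8:94172368-94172617 and Mt1 at chr8:94178839-94179088, plus strand), because they hold the core of the metal response element, TGCACNC or TGCGCNC on either strand, in capitals.
Mt2: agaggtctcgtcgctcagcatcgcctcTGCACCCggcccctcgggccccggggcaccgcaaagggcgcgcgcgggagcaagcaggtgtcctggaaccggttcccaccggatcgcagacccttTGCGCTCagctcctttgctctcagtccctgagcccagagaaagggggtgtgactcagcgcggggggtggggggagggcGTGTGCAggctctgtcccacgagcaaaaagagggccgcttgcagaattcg
Mt1: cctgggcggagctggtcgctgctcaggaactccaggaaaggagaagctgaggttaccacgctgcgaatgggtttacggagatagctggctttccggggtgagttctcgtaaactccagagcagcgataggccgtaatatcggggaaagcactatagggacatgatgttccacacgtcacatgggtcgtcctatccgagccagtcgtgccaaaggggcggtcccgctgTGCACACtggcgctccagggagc
Mt2 held 3 matches, 43 to 223 bases before the start, and Mt1 held 1, 16 to 23 bases before it. Of all windows 21.4% held at least 1 match and 1.26% at least 3. In the metallothionein and zinc list 10 of 12 genes had a window, and the core was in 3 of 4 called higher, in 0 of 1 called lower and in 3 of 5 not called.

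Glucocorticoid-responsive genes were called higher in 12 of 24 and lower in 1, with a median of 0.97. Fkbp5, a chaperone of the glucocorticoid receptor that the receptor induces, was at 33.3, 18 and 21.1 CPM in S and at 68.9, 92.8 and 56.0 CPM in T. Fkbp5 (chr17:28399094-28517527) rose 3.01-fold (1.59, SE 0.23, adjusted P = 0.00127). The transcription factor Zbtb16 went from 51.3, 29.8 and 34.1 CPM to 284, 276 and 242 CPM, a 6.96-fold rise (2.80, SE 0.24, adjusted P = 0.000115). Neither gene's groups overlapped. Klf15 rose by 1.02, Klf9 by 0.92 and the glutamine synthetase Glul by 1.38 (SE 0.12). The receptor gene itself, Nr3c1, was the one that fell, by 0.48 (SE 0.07). This list shares Pdk4, Angptl4, Lcn2 and Mt2 with others above.

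Clock genes moved in both directions, 6 of 20 called higher and 2 lower. Dbp, an output of the clock, was at 6.58, 6.60 and 4.92 CPM in S and at 22.2, 57.8 and 20.4 CPM in T (2.47, SE 0.46). The repressor Nr1d1 (Rev-erb alpha) went from 56.6, 59.0 and 54.6 CPM to 136, 122 and 97.7 CPM (1.06, SE 0.12, adjusted P = 0.000404). The repressor Cry1 fell from 25.9, 22.6 and 21.6 CPM to 6.63, 7.49 and 8.51 CPM (-1.64, SE 0.12, adjusted P = 7.69e-05). The labels give no hour of tissue collection for each animal, and the part of the time of day in these values was not tested.

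Genes of muscle wasting and of protein breakdown were called higher more often than lower. Of 24 atrophy and Foxo genes 15 rose and 1 was called lower, with a median of 0.55. The muscle ubiquitin ligases Trim63 (Murf1) and Fbxo32 (atrogin-1) changed modestly. Trim63 was at 172, 192 and 214 CPM in S and at 348, 308 and 311 CPM in T (0.74, SE 0.10, adjusted P = 0.000916), and Fbxo32 was at 241, 216 and 294 CPM in S and at 366, 352 and 441 CPM in T (0.63, SE 0.14, adjusted P = 0.0106). The mitophagy receptor Bnip3 went from 129, 137 and 137 CPM to 298, 305 and 350 CPM (1.25, SE 0.10, adjusted P = 8.89e-05), and the translation repressor Eif4ebp1 rose by 0.86 (SE 0.12). The 2 metallothioneins count in this list too. Of 31 autophagy and mitophagy genes 15 were called higher and 2 lower, with Gabarapl1 at 1.01 (SE 0.16), Atg13 at 0.86 (SE 0.08), the adaptor Sqstm1 at 0.77 (SE 0.09) and the lysosomal protease Ctsl at 0.77. Without S animal 3 or S animal 5 only 8 were called higher. Of 36 proteasome genes 6 rose and none fell (1 at an unadjusted P under 0.05, and 0 with the other tests), with a largest change of 0.48, in Psmd4.

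Of 27 heat shock genes 13 were called lower, 13 were not called and 1 was called higher, with a median of -0.33. Their summed level, from 11362 to 12069 CPM in S and from 10882 to 12940 CPM in T, overlapped. Hsph1, a nucleotide exchange factor for Hsp70, was at 74.2, 68.6 and 70.5 CPM in S and at 33.1, 31.6 and 33.4 CPM in T, with narrow groups far apart. Hsph1 (chr5:149614287-149636376) fell 2.18-fold (-1.12, SE 0.10, adjusted P = 0.000161). Hspa1b, an inducible Hsp70 with a near-identical neighbour, fell by 1.67 (SE 0.32) from low levels. The small chaperone Hspb3 fell by 1.02, the co-chaperone Fkbp4 fell by 0.88 (SE 0.09) and Dnaja1 fell by 0.85 (SE 0.12), while Dnajb4 rose by 0.68 (SE 0.09). The heat shock element, GAANN followed by TTCNN and then by GAA on either strand, was in 0 of the 11 genes called lower that had a promoter window, in 0 of 1 called higher, in 2 of 9 not called and in 0.466% of all windows. Oxidant defence and unfolded protein genes gave few calls, with Nqo1 at 1.13 (SE 0.11) and Gclm at 0.69 among 5 of 30 Nrf2 and antioxidant genes called higher (3 without S animal 2, 7 without T animal 12 or T animal 15), and Herpud1 at 0.85 (SE 0.11) among 2 of 22 genes of endoplasmic reticulum stress.

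Growth genes were mixed. The proto-oncogene Myc was at 3.70, 3.96 and 3.47 CPM in S and at 8.67, 8.74 and 10.9 CPM in T (1.33, SE 0.17, adjusted P = 0.000815). Its relative Mycn fell from 3.32, 4.77 and 4.48 CPM to 0.620, 0.357 and 0.374 CPM (-3.18, SE 0.31, adjusted P = 0.000184). The 2 members of the family thus moved in opposite directions in the same hearts. Of 76 cytosolic ribosomal protein genes 75 had a log2 fold change above 0, with a median of 0.35, but 7 were called higher and none lower (47 higher and 0 lower at an unadjusted P under 0.05, and 29, 17 and 10 higher and 0 lower with DESeq2, the likelihood ratio test and limma-voom). Without S animal 2, S animal 3 or S animal 5 none of the ribosomal protein genes was called. Of 26 translation factors 12 were called higher and 1 lower, with Eef2 at 0.46 (SE 0.09) and Eif1 at 0.44 (SE 0.09), and 7 were called higher without S animal 2 or S animal 5. Cyclin D1, Ccnd1, was among the 10 genes with the smallest P and went from 34.9, 34.3 and 33.8 CPM to 10.5, 11.7 and 12.2 CPM (-1.59, SE 0.09, adjusted P = 1.94e-05). In insulin and Igf signalling 4 of 28 genes were called higher, with Igf1r at 0.99 (SE 0.15), and 4 lower, with Igfbp7 at -0.83 (SE 0.11).

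Several of the largest changes lay outside these lists. Among rises, the synaptotagmin Syt12 went from 1.88, 1.32 and 2.53 CPM to 11.6, 15.4 and 12 CPM (2.79, SE 0.23), Fam46b rose by 2.68 (SE 0.39) and the lipocalin Apod by 2.31 (SE 0.22). Among falls, the Nogo receptor Rtn4r went from 8.79, 7.36 and 6.94 CPM to 0.867, 0.892 and 1.78 CPM (-2.76, SE 0.32), the matrix protein Spon2 fell by 2.56 (SE 0.20), the integrin Itgb6 fell by 2.18 (SE 0.22), the endothelial repressor Bcl6b fell by 2.15 (SE 0.20) and the imprinted gene Mest fell by 2.05 (SE 0.23). The 10 smallest P values also took in Tmtc1 (1.44, SE 0.08, adjusted P = 1.91e-05), Nrep (13.9 to 14.3 CPM in S and 3.15 to 3.78 CPM in T), the splicing factor Srsf5 (1.28, SE 0.08), the Wnt pathway protein Dact3 (-1.39, SE 0.09) and the scramblase Plscr2 (1.55, SE 0.11). In each of these 5 the 3 T hearts lay to one side of the 3 S hearts.

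The A + T hearts are given beside T for genes named above, and since A + T and S are both set against the same T libraries these values are a description. The doubt about the labels holds for A + T too, so no effect of ACVR2B/Fc is read from these values. Between A + T and T 786 of the 13364 genes were called (5.88%). The log2 difference of A + T from T was -2.33 for Myh7 (adjusted P = 1.2e-05), -1.58 for Fkbp5 (adjusted P = 0.0071), -1.01 for Gbp6 (adjusted P = 0.0025) and -1.66 for Mt2 (adjusted P = 0.02). Fkbp5 in A + T, at 22, 25.1 and 26.1 CPM, lay within the range of the S hearts. Col3a1 was higher in A + T than in T by 1.69 (adjusted P = 0.0086), and Apln was higher too (adjusted P = 0.0043). Pdk4, at 2076, 2465 and 2556 CPM in A + T, lay within the range of T (difference -0.15, adjusted P = 0.89), and the A + T values of Txnip (0.03, adjusted P = 0.95), Cpt1a (-0.03, adjusted P = 0.86) and Hsph1 (0.09, adjusted P = 0.67) overlapped those of T. Ucp3 reached 133, 136 and 120 CPM, above every T heart (0.69, adjusted P = 0.27). The plot of 16 genes by animal shows the values of all 9 hearts.

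**Figure D5:**
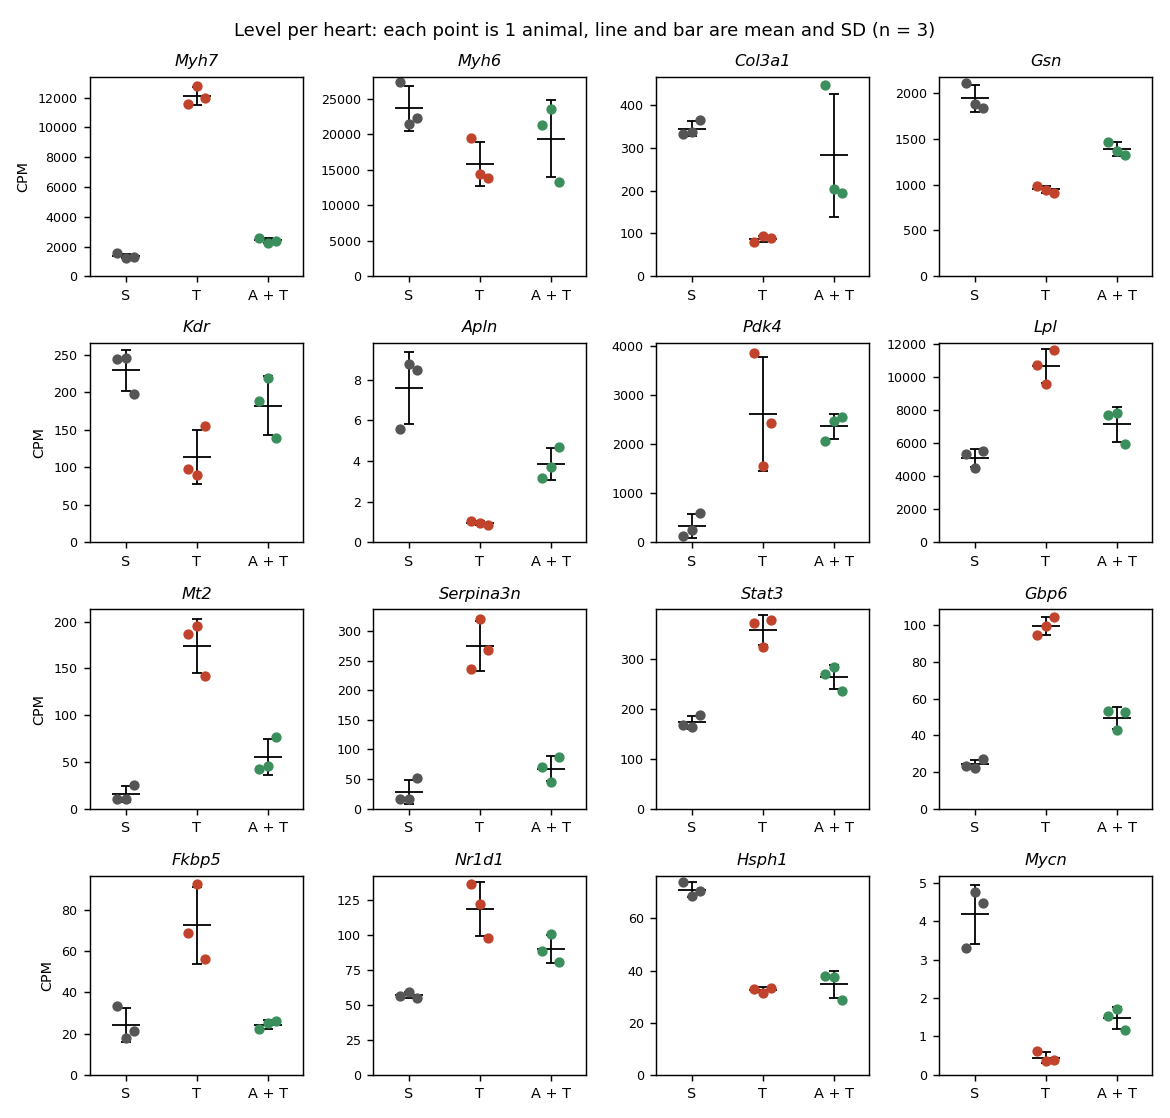
CPM of 16 genes in each heart (point) of S, T and A + T, with the mean as a line and the SD as a bar (n = 3 hearts per group), each panel on its own linear axis from 0. Myh7 stands apart in T at 11605 to 12803 CPM, Pdk4 is high in both T and A + T, and Col3a1 and Apln are lowest in T.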

How the data were processed

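RNA-seq of 9 mouse hearts was analysed (S, T and A + T, 3 animals each). Per the labels and the study's methods, the authors sequenced 75-base read pairs, checked them with FastQC, aligned them with STAR to mm10 and counted uniquely mapped reads per RefSeq gene by strand. The versions of those tools are not given in the sources used here. The authors deposited counts per gene, not normalized, which were used for every test, and log2 normalized values per length, used for the share of Myh7 and as an alternative. A further 3443 rows carried no gene name and held 0 counts.

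Genes with CPM under 0.5 in more than 4 libraries were removed (526 of 13890). All 9 libraries were fitted together with edgeR 4.0.16 (R 4.3.3), with trimmed mean of M values scaling and the quasi-likelihood test, contrast T - S, Benjamini-Hochberg adjustment over 13364 genes. SE is the log2 fold change divided by the square root of F. With 3 animals per group, P values rest on few degrees of freedom. The SE and P values take in the spread between animals, estimated over all 9 libraries. Scripts were tested on simulated data. Limma 3.58.1 (with and without voom), DESeq2 1.42.0, the likelihood ratio test, other scalings and filters, a correction for GC content and length, and leaving out each animal were tried. Gene positions are from GENCODE M21, promoters from RefSeq.

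The comparison, the 96 gene lists and the rule for named genes were chosen with earlier results of these data known, so lists are described by counts and medians and not tested. The rule names the 15 largest called rises and falls without overlap and with a mean of at least 50 counts, the 10 smallest P values, up to 4 called members per list and direction with the largest changes, each list's most abundant member, cell type markers and the 10 most abundant genes. Acadl, Ctsl, Dnaja1, Eif1, Fbn1, Fbxo32, Fkbp5, Glul, Id2, Irf7, Irf9, Klf15, Nid1, Nppb, Nrp1, Stat3, Trim63 and Vegfc lie outside the rule and were chosen after their values were seen.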

Additional observations from a re-analysis of the deposited data

How the results depend on the processing

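The limits of these results are 3 animals per group and the doubt about the T and A + T labels. Further limits are the airway, adipose and atrial transcripts of T animal 12 and a share of Rn45s from 4.57% to 19.6% of the counts. Of 527 named genes tested 344 were called, 229 kept their call in every alternative other than leaving out an animal, 218 with each S and T animal left out and 197 in all, and none reversed. Against 2838 genes at an adjusted P under 0.05, DESeq2 called 2958, the likelihood ratio test 3031, limma-voom 2870, upper-quartile scaling 2838, no filter 2834, a minimum of 10 counts 2778, the 6 S and T libraries alone 3402, limma on the deposited log2 values 2526, the counts without Rn45s 2840 and the GC and length correction 3211. Scaling by library size alone called 1636, of which 35.8% were higher against 48.3% in the main analysis. Under it 250 of the 344 called named genes kept their call and 94 did not, among them Eef2, Ldha and Psmd4. With an animal left out the count ran from 1765 to 3786, the lowest without T animal 11 and the highest without A + T animal 22. At an adjusted P under 0.1 it was 3958. At an unadjusted P under 0.05 and 1.5-fold the count of 1899 ran from 1634 to 1974 over these alternatives and from 1739 to 1972 with an animal left out, and with no limit on the fold change it was 4731. The cause of these shifts was not tested. No paired analysis was possible because the groups share no animal numbers. The alternative without mitochondrially encoded genes was not run because 0 of them are in the table.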

Other observations

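Several further gene groups were measured. Of 42 ribosome biogenesis genes 7 were called higher and none lower, with Rrp12 at 0.72 and Gnl2 at 0.52, and without T animal 11 only 3 were called. Of 22 hypoxia-inducible genes 6 were called higher and 5 lower, with Bnip3 at 1.25 and the prolyl hydroxylase Egln3 at -0.85, and without S animal 2, S animal 3, T animal 11 or T animal 12 only 2 were called lower. Of 18 p53 target genes 4 were called higher, led by the death receptor Fas at 1.21 (SE 0.21) and the cell cycle inhibitor Cdkn1a at 1.17, and 3 lower (0 without T animal 11). Of 26 immediate early genes 1 rose, Myc, and 4 were called lower, among them Egr2 at -2.55 and Egr1 at -2.08. Egr1 was at 44.7, 93.0 and 48.8 CPM in S and at 5.51, 13.9 and 26.1 CPM in T, and its call was lost without S animal 3 or T animal 12. Without S animal 3 or T animal 11 only 1 immediate early gene was called lower.

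Of 15 thyroid hormone genes 3 were called higher, Myh7, Ucp3 and Klf9, all listed elsewhere too, and 4 lower, with the thyroid hormone transporter Slc16a10 at -0.74. Of 18 cardiac transcription factors 3 were called lower and none higher, with Irx4 at -0.48, Gata4 at -0.43 and Nkx2-5 at -0.30, calls kept in 2, 1 and 5 of the 6 fits without 1 animal. The Langerhans cell lectin Cd207 was at 1.44, 4.72 and 3.91 CPM in S and at 0.867, 0.297 and 0.187 CPM in T (-2.80, SE 0.54, adjusted P = 0.00521), while A + T had 8.78, 6.46 and 9.43 CPM. The club cell gene Scgb3a1 was called at 4.29 and reached 23.4 CPM in T animal 12, with 1.12 and 1.40 CPM in the other T hearts, and the call was lost without that animal or without any 1 of the S animals.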
